A study of Mus musculus with 15 samples.

Results

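In mouse NIH3T3 fibroblasts examined 6 h after UV-C irradiation, 758 of 21881 promoters lost acetylation of histone H3 at lysine 27 (H3K27ac). Members were chosen by their pooled ChIP-seq reads in a promoter window of 1000 bp. The log2 ratio of irradiated to untreated reads, with 16 reads added to each, had to be -0.9 or less, and the untreated window had to hold at least 100 reads. Windows with at least 100 untreated reads numbered 9852 and are called acetylated promoters here. The 758 made up 3.46% of all promoters and 7.69% of acetylated promoters. The H3K27ac values therefore define the promoters and are given as a description without a test.

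NIH3T3 is an established line of mouse embryonic fibroblasts. The cells were either left untreated or irradiated with 80 J/m2 of UV-C at 254 nm and cultured for 6 h in fresh medium with DMSO. The labels do not say whether untreated cells were washed, given fresh medium or given DMSO, so irradiation and these steps cannot be told apart. RNA-seq had 3 libraries per condition, FAIRE-seq and H3K27ac ChIP-seq had 2 samples per condition, and 1 untreated input DNA sample was shared. The promoter tables give 1 pooled value per condition, in columns headed untreated and DMSO, and the DMSO column was taken as the irradiated pool.

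Acetylation of H3 lysine 27 is laid down by the acetyltransferases p300 and CBP and removed by histone deacetylases. The mark lies at active promoters and enhancers and is read by bromodomain proteins. FAIRE isolates DNA that is poorly crosslinked to protein, which marks open, nucleosome-poor chromatin. UV-C makes pyrimidine dimers that block elongating RNA polymerase II, so long transcription units are especially exposed to the damage. The RNA count at 6 h reflects both new transcription and RNA made before irradiation.

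The RNA libraries held between 14211528 and 22032701 counts, and 14925 of 19069 genes had enough counts to be tested. Of the 6 libraries, replicate 1 after UV had the fewest genes detected, 17607 against 18350 to 18787 in the others. Replicate 1 also stood apart in both conditions by the chi-square per degree of freedom of its counts: 58.3 and 57.2 from the other UV libraries, which were 5.51 from each other, and 46.3 and 39.0 from the other untreated libraries, which were 16.4 from each other. The 8 fibroblast markers summed to between 17215 and 28665 CPM (counts scaled by library size). The 5 epithelial, 4 leukocyte and 3 endothelial markers each summed to at most 16.8 CPM in any library, and no marker of these 3 lists was at 0 in all libraries. Reads over all promoters rose from 4015279 to 4447997 in the H3K27ac pools and fell from 1032412 to 637080 in the FAIRE pools.

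The promoters shown next carry the extremes of the results: the strongest RNA decreases with an available sequence (Hist1h3g and Hist1h2bj), the largest RNA increases (Fat4 and Rpl39), and a strong loss of both H3K27ac and FAIRE (Cbx6). Insig1 stands for the sterol genes and was chosen after its values were seen. Each run is 250 bases before to 50 bases after the transcription start on the gene's strand, from RefSeq on build GRCm38.p6. The deposited windows carry gene symbols without coordinates, so how far these runs cover each window is not known. Hist1h3g (now H3c8) lies at chr13:23535168-23535467 on the plus strand, Hist1h2bj (now H2bc11) at chr13:22042948-22043247 on the plus strand, and Fat4 at chr3:38886690-38886989 on the plus strand. Rpl39 lies at chrX:37085173-37085472 on the minus strand, Insig1 at chr5:28071162-28071461 on the plus strand, and Cbx6 at chr15:79834284-79834583 on the minus strand. Capitals mark matches, on either strand, to the motifs searched: the core promoter element TATAAA, the activator site CCAAT, the Sp1-type site GGGCGG known as a GC box, the E-box CACGTG, the AP-1 site TGACTCA, the cyclic AMP response element (CRE) TGACGTCA and the sterol regulatory element TCACNCCAC.
Hist1h3g: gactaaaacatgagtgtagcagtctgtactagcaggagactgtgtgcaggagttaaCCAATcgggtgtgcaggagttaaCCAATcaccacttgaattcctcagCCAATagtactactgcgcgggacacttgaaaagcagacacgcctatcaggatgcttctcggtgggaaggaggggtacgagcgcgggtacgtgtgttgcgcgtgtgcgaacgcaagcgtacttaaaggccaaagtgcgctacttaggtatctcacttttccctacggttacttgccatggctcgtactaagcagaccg
Hist1h2bj: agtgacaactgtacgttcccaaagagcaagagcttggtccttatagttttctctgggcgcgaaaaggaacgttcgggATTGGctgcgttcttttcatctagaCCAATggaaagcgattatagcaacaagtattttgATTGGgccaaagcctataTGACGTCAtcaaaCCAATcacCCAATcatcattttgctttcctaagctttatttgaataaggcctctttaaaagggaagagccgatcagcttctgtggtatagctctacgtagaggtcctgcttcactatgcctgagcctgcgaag
Fat4: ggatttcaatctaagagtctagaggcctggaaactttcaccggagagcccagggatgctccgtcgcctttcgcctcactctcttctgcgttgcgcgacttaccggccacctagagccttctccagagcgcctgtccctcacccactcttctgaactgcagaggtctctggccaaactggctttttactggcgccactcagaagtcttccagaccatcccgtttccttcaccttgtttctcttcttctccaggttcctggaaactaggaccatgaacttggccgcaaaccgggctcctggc
Rpl39: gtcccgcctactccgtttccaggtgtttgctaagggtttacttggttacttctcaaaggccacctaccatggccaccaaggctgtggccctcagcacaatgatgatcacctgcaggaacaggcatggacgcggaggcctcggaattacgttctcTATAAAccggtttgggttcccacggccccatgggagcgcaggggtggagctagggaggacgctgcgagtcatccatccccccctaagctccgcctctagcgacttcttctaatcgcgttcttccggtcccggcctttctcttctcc
Insig1: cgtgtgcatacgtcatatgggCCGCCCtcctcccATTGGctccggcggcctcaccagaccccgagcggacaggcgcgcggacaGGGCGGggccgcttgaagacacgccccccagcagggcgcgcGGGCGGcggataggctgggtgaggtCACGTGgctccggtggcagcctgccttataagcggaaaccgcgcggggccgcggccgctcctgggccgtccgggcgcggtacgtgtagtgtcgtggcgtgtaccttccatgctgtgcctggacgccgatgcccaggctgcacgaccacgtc
Cbx6: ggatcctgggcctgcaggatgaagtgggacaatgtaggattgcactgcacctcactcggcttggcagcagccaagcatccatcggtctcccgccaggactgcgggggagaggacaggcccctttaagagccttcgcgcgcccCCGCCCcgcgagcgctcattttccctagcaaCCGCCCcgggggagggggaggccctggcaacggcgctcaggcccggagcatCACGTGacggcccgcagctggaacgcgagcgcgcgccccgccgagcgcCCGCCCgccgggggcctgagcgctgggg

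The Hist1h3g run holds 3 CCAAT matches and the Hist1h2bj run 5, along with the CRE. The Cbx6 run has 3 GC boxes and an E-box, Insig1 has 3 GC boxes, a CCAAT box and an E-box, and Rpl39 has a TATAAA match. These are matches of letters at any position in the run, and whether they act as elements was not tested. No searched motif was matched in the Fat4 run. A RefSeq promoter was found for 575 of the 758 members, and the 429 with a single usable sequence were set beside 5936 other acetylated promoters. A base could count toward more than 1 motif.

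Members had fewer CpG dinucleotides than other acetylated promoters, with a median of 18 per 300 bases (quartiles 11 and 25) against 23 (quartiles 17 and 30). Their GC content was close, with medians of 61.0% and 62.0%. The CRE was present in 4 of 429 members (0.932%), in 229 of 5936 other acetylated promoters (3.86%) and in 1.79% of all RefSeq promoters. GC boxes were matched in 65.5%, 71.1% and 35.7% of these 3 sets in the same order. CCAAT boxes were matched in 40.6%, 39.7% and 37.4%, and TATA boxes in 6.53%, 6.17% and 13.6%. The E-box shares were 10.3%, 10.9% and 7.15%, and the AP-1 shares were 3.50%, 2.85% and 5.20%. The sterol element was matched in 3 members (0.699%), against 0.943% of the other acetylated promoters and 1.24% of all RefSeq promoters. These shares are descriptions of the letters in the window.

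Across the 758 members the median H3K27ac read count was 297.5 in the untreated pool and 119 in the irradiated pool. Other acetylated promoters had medians of 337 and 365 reads. The members' log2 ratios ran from -2.76 to -0.90 with a median of -1.13, and 19 members lay at -2 or below. The median of the other acetylated promoters was 0.11. Just inside the limit, Rabep2 went from 389 to 201 reads and Lass6 from 333 to 171. Just outside it, Arhgdib went from 372 to 192 reads and Neil1 from 178 to 88.

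**Figure D1:**
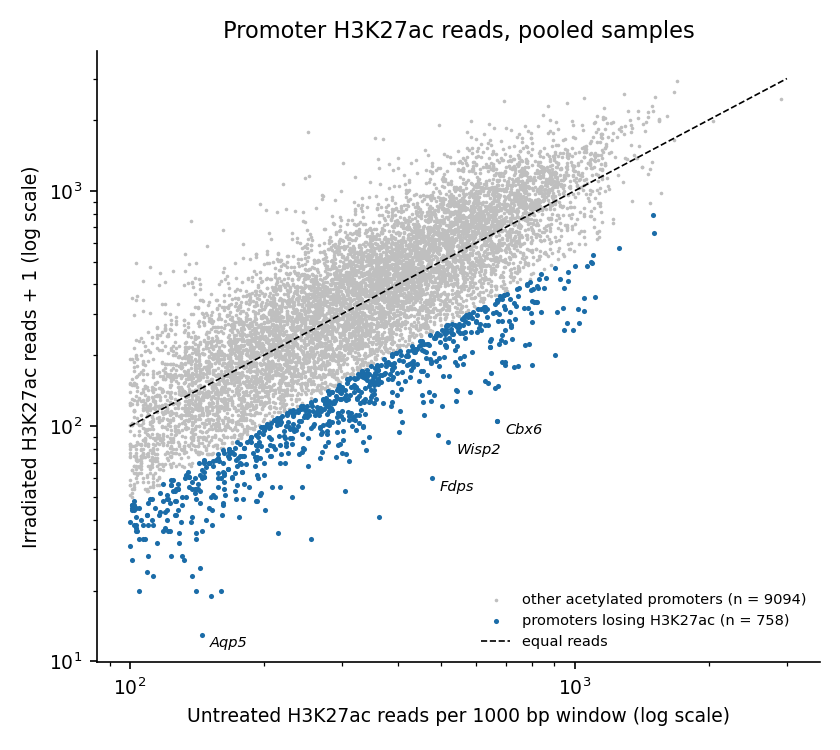
H3K27ac reads per promoter window in the irradiated pool (plus 1 read) against the untreated pool, both on log axes, for the 9852 acetylated promoters. Blue points are the 758 promoters chosen for their loss, grey points the other 9094, and the dashed line marks equal reads; Fdps (477 to 59 reads) and Cbx6 (668 to 104) lie far below it.

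The lowest ratios belonged to promoters of unlike function. Fdps, which makes the cholesterol precursor farnesyl diphosphate, went from 477 to 59 reads. Aqp5, a water channel of secretory epithelium, went from 145 to 12 reads at a promoter whose RNA was at most 1.91 CPM in any library. Cbx6, a chromodomain protein of Polycomb repressive complex 1, went from 668 to 104 reads, and the window listed for Npcd holds the same reads. Also among the lowest 8 were the promoters of Galnt9 (255 to 32 reads), Wisp2 (520 to 85 reads) and Psd3 (160 to 19 reads). None of the 7 genes of this group with an RNA test passed it, in either direction (edgeR, adjusted p from 0.135 to 0.997). At an unadjusted p under 0.05, 1 of them was lower, and DESeq2 called 0. Fdps was called higher when replicate 1 after UV was left out.

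Most genes with a promoter losing H3K27ac had no called change in RNA. The RNA files held 683 of the 758 genes and 677 had enough counts for the test. Of the 75 genes not in the files, 21 are microRNA or snoRNA genes. With edgeR's quasi-likelihood test and a Benjamini-Hochberg adjusted p under 0.05, 138 of 677 genes (20.4%) were lower, 65 (9.60%) were higher and 474 (70.0%) were not called. Among all 14925 tested genes 12.4% were lower and 7.70% higher, and among the 8855 tested genes with an acetylated promoter 18.4% were lower and 10.9% higher. With all libraries the members' shares lay near those of acetylated promoters at large. These p-values measure the spread between the libraries, which the labels do not say came from separate cultures. In bulk RNA, fewer cells of a type and less RNA per cell cannot be told apart.

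The median log2 fold change of the 677 genes was 0.02, with quartiles of -0.48 and 0.36, and the median over all tested genes was -0.01. A decrease of at least 2-fold among the calls was seen in 78 members (11.5%), against 7.71% of tested genes with an acetylated promoter and 5.37% of all tested genes. An increase of at least 2-fold was seen in 6 members (0.886%), against 2.10% and 1.81%. The CPM values of the 2 conditions did not overlap for 311 members (45.9%), against 47.2% of acetylated and 33.9% of all tested genes. Members were also lower in RNA to begin with, with a median of 32.0 untreated CPM against 43.4 for other acetylated promoters.

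The calls depended on single libraries. Of the 138 lower calls, 83 were kept when each of the 6 libraries was left out in turn, and of the 65 higher calls 23 were kept. The number of higher calls was 26 (3.83%, against 5.35% of tested genes with an acetylated promoter) without replicate 3 after UV. It was 101 without replicate 1 after UV and 109 without untreated replicate 2. Without untreated replicate 2 the lower calls were 98, so higher calls outnumbered lower ones (16.1% against 14.5%). They also did so among tested genes with an acetylated promoter (19.2% against 11.7%) and all tested genes (12.5% against 7.49%). Without replicate 1 after UV, 27% of members were lower and 14.9% higher, against 28.5% and 11% of tested genes with an acetylated promoter. Without untreated replicate 1, 19.0% were lower and 13.5% higher, against 15.1% and 17.2%. With library totals in place of TMM scaling, 214 members were lower (31.6%, against 37.7% of tested genes with an acetylated promoter). The higher members numbered 45 (6.65%, against 9.02% of those genes and 6.06% of all tested genes). The higher share of the members' calls fell from 32.0% to 17.4%. Among tested genes with an acetylated promoter, 18.4% were lower and 10.9% higher with TMM, so their calls shifted the same way. The median of all tested genes fell from -0.01 to -0.24. In the authors' deposited table of changed genes, 138 of these genes appear, 102 lower and 36 higher, and all 138 were called in the same direction here.

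**Figure D2:**
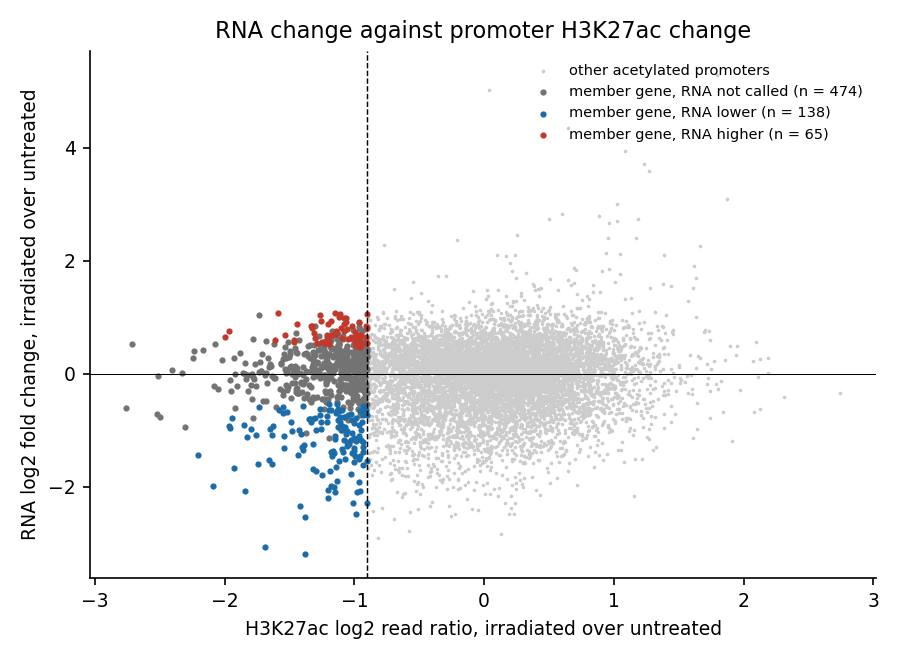
RNA log2 fold change (y) against promoter H3K27ac log2 read ratio (x), both irradiated over untreated, for tested genes with an acetylated promoter. Left of the dashed line at -0.9, blue points are the 138 members called lower, red the 65 called higher and dark grey the 474 not called; light grey points are other acetylated promoters.

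Within the members, the H3K27ac log2 ratio and the RNA log2 fold change had a Pearson r of 0.08 (Spearman rho = 0.06, 677 genes). In the 8178 tested genes of other acetylated promoters the values were 0.11 and 0.07. The rule keeps only ratios of -0.9 or less, which narrows their range. The members' value therefore cannot show how the 2 measures relate in general. The points share the same pools and libraries, and genes are not independent replicates. Among the 106 tested genes with a ratio of -1.5 or below, 23.6% were lower and 4.72% higher in RNA. In the class from -1.5 to -1.2 the shares were 17.9% and 11.1%, and in the class from -1.2 to -0.9 they were 20.5% and 10.3%. Within the members, these shares do not order with the size of the loss for lower calls. Outside them, 21.4% were lower and 9.50% higher in the class from -0.9 to -0.6. In the class over 0.6 the shares were 14.8% and 14.7%.

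Genes of cholesterol synthesis and its control were frequent among the promoters that lost H3K27ac, but their RNA was mostly not called. Of 21 acetylated promoters in the fixed list, 7 (33.3%) were members, among them Fdps, Fdft1, Insig1, Lss and Mvd, beside 7.69% of all acetylated promoters. The log2 ratio was below 0 in 19 of the 21, with a median of -0.66. The list was written with earlier results of these data known, and its H3K27ac values come from the measure that chose the members. In RNA, 1 of the 7 was lower, none was higher and 6 were not called, and the median log2 fold change was -0.41 beside -0.01 for all tested genes. The members called lower numbered 3 without replicate 1 after UV, 2 without untreated replicate 1 or replicate 2 after UV, and 0 without replicate 3 after UV. Over the whole list, 4 of 23 genes were lower and none higher.

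Fdps had 209, 421 and 349 CPM untreated and 347, 506 and 562 CPM after UV, so the conditions overlapped. Its log2 fold change was 0.53 ± 0.26 (edgeR adjusted p = 0.180), and it was called higher when replicate 1 after UV was left out, with 0.69.

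Mvd, which makes isopentenyl diphosphate, had 26.8, 57.1 and 51.9 CPM untreated and 26.3, 32.4 and 28.9 CPM after UV, with log2 fold change -0.63 ± 0.23 (edgeR adjusted p = 0.0618). Untreated replicate 1 lay among the irradiated values. Insig1, which holds the sterol sensor complex in the endoplasmic reticulum and whose promoter is shown above, went from 733 to 284 H3K27ac reads, with RNA at 117, 224 and 182 CPM untreated and 142, 114 and 138 CPM after UV. Its groups overlapped (edgeR adjusted p = 0.261). Fdft1 and Lss encode squalene synthase and lanosterol synthase and had RNA log2 fold changes of -0.20 and 0.08, neither called.

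A list of fatty acid synthesis and desaturation genes was drawn up after the values were seen, and is a description only. Of its 16 acetylated promoters, 8 were members. Acly, which supplies cytosolic acetyl-CoA, went from 459 to 111 H3K27ac reads, and Fasn, the fatty acid synthase, from 696 to 227. The desaturase genes Scd2, Scd4 and Scd1 are adjacent in the gene order and went from 1022 to 273, from 105 to 19 and from 824 to 337 reads. Elovl6, a fatty acid elongase, went from 193 to 61 reads. In RNA, 6 of the 8 were not called, and of 21 tested genes on the list 3 were lower and 2 higher. Fads1, a desaturase of polyunsaturated fatty acids, was called higher at 0.69 ± 0.21 (edgeR adjusted p = 0.0262), and the adjusted p was 0.257 without replicate 3 after UV.

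**Figure D3:**
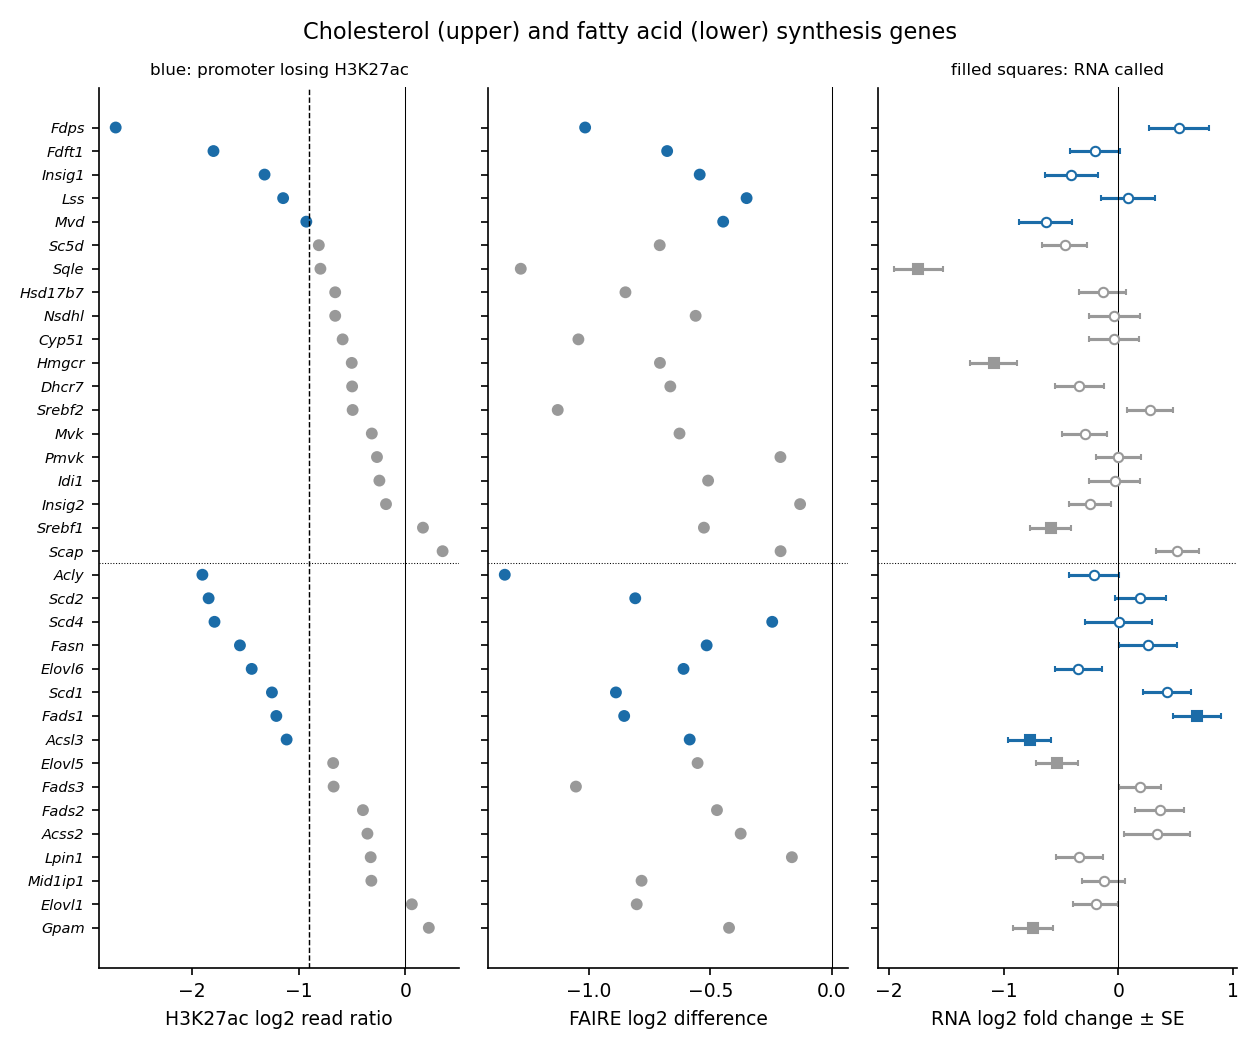
Promoter H3K27ac log2 read ratio, FAIRE log2 difference and RNA log2 fold change with its standard error (left to right, irradiated over untreated) for the genes of cholesterol synthesis and its control with an acetylated promoter, above the dotted line, and of fatty acid synthesis, below it. Blue marks members, the dashed line the limit of -0.9, and filled squares the genes called in RNA; Acsl3 and Fads1 are the called members shown, and genes not reported here are left out.

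Acsl3 and Utp14b are listed with the same promoter reads and opposite RNA changes. Acsl3 activates long-chain fatty acids and Utp14b takes part in ribosomal RNA processing. Both windows hold 263 untreated and 113 irradiated H3K27ac reads, and 85 and 44 FAIRE reads. Acsl3 RNA was 86.6, 121 and 94.7 CPM untreated and 63.0, 55.2 and 58.6 CPM after UV. The groups did not overlap, with log2 fold change -0.77 ± 0.19 (edgeR adjusted p = 0.00632), and 0.0635 without replicate 3 after UV. Utp14b RNA was 16.5, 17.2 and 18.5 CPM untreated and 43.3, 28.4 and 37.3 CPM after UV. Every irradiated library was above every untreated library, with log2 fold change 1.06 ± 0.19 (edgeR adjusted p = 0.000481), and this call was kept whichever library was left out. How the authors' counting treated reads that fit more than 1 gene is not given in the sources used here.

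Replication-dependent histone genes, which supply histones to replicating DNA, made up 10 of the 758 promoters out of 38 acetylated promoters of the family (26.3%). All 8 that could be tested were lower in RNA, with a median log2 fold change of -2.05 and a range from -3.19 to -0.93. The decrease extended over the family, with 49 of 53 tested genes lower, so it was not limited to promoters that lost H3K27ac. The 8 calls were kept with library totals and with each library left out. These genes have near-identical copies and their mature RNA mostly lacks a poly(A) tail, so counts of single copies are uncertain.

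Hist1h3g, a histone H3 gene, had 21.9, 18.9 and 18.7 CPM untreated and 1.67, 2.96 and 1.91 CPM after UV. No irradiated library came near an untreated one, and the log2 fold change was -3.19 ± 0.23 (edgeR adjusted p = 8.42e-08), the lowest among the named genes. Its promoter, with the 3 CCAAT matches above, went from 301 to 106 H3K27ac reads and from 72 to 26 FAIRE reads. Hist1h2bj, an H2B gene, had 35.6, 33.5 and 28.0 CPM untreated and 6.62, 6.13 and 4.58 CPM after UV. The groups were far apart, with log2 fold change -2.49 ± 0.20 (edgeR adjusted p = 2.13e-07). Hist1h2be and Hist1h3h fell by 2.09 and 2.34 on the log2 scale. Hist1h2af, Hist1h3g, Hist1h2bh and Hist1h3f are 4 members in a row in the RefSeq gene order on chromosome 13.

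Genes for zinc finger proteins of the Zfp series, most of which bind DNA, had 15 members among 243 acetylated promoters (6.17%). Of 13 tested members 9 were lower and none higher, with a median log2 fold change of -1.12. The family as a whole had 146 of 317 tested genes lower and 4 higher, so here too the decrease was not limited to these promoters. Leaving out replicate 3 after UV left 6 of the 9 calls. Zfp637 had 40.1, 54.9 and 41.1 CPM untreated and 11.3, 10.1 and 8.17 CPM after UV, with log2 fold change -2.20 ± 0.20 (edgeR adjusted p = 6.69e-07). The conditions were separated in every library. Zfp41 and Zfp90 fell by 2.10 and 1.60 on the log2 scale.

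Polycomb genes, whose products maintain repressed chromatin, had 4 members of 20 acetylated promoters, and these did not move together. The whole Polycomb list had 6 of 26 tested genes lower and 2 higher. Cbx2, a chromodomain subunit of Polycomb repressive complex 1, went from 293 to 103 H3K27ac reads. Its RNA was 30.9, 30.7 and 28.2 CPM untreated and 5.32, 5.39 and 4.69 CPM after UV. Libraries within a condition were close and the conditions far apart, with log2 fold change -2.54 ± 0.18 (edgeR adjusted p = 7.49e-08). Cbx6, with the larger H3K27ac loss, had 236, 297 and 252 CPM untreated and 284, 216 and 263 CPM after UV. Its conditions overlapped throughout, with log2 fold change -0.04 ± 0.20 (edgeR adjusted p = 0.969). Phf1, a Polycomb-like protein, was not called at 0.51 ± 0.18 (edgeR adjusted p = 0.0622).

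In the list of homeobox and developmental transcription factors, 9 of 49 acetylated promoters were members, 4 of the 9 were lower and none was higher, with a median of -0.31. Without single libraries between 2 and 4 members were called lower. The lowest count, 2, came without untreated replicate 2 or 3 or replicate 2 or 3 after UV. Without untreated replicate 2, 1 member was called higher. The whole list had 21 of 58 tested genes lower and 1 higher, with a median of -0.45. Its acetylated promoters outside the members had 17 of 39 tested genes lower, with a median of -0.60. Meis1, a homeobox partner of Hox proteins, and Nr2f1, an orphan nuclear receptor, fell by 1.10 and 1.08 on the log2 scale and were called whichever library was left out (edgeR adjusted p = 0.000254 and 0.000255). Gata6 was lower at -0.85 ± 0.26 (edgeR adjusted p = 0.0266), and lost the call under 6 alternatives. Of 4 Hox members among 10 acetylated Hox promoters, Hoxa3 was lower at -0.95 ± 0.22. Hoxa2 and Hoxd3, at -0.46 and 0.66, were not called. Of all tested Hox genes 2 of 24 were lower and none higher.

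Atoh8, a basic helix-loop-helix factor outside those lists, had 46.2, 38 and 34.2 CPM untreated and 11.3, 8.49 and 8.46 CPM after UV. The lowest untreated library was above the highest irradiated one, with log2 fold change -2.07 ± 0.19 (edgeR adjusted p = 1.1e-06). Rasl11a, a Ras-like small GTPase, had 53.2, 146 and 118 CPM untreated and 18.8, 23.0 and 23.6 CPM after UV. Untreated replicate 1 was the lowest of its group and still above the irradiated libraries, with log2 fold change -2.28 ± 0.28. Pgp, phosphoglycolate phosphatase, fell by 2.07 on the log2 scale at between 1.27 and 11.7 CPM.

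Among signalling genes, Wnt pathway members numbered 4 of 21 acetylated promoters, with 3 lower. The whole Wnt list had 10 of 34 tested genes lower and none higher. Fzd2, a Wnt receptor, and Wnt5a, a Wnt ligand, fell by 1.45 and 1.06 on the log2 scale (edgeR adjusted p = 2.63e-05 and 0.00173), and both calls were kept whichever library was left out. Gsk3b, the kinase that marks beta-catenin for destruction, was lower at -0.63 ± 0.19 (edgeR adjusted p = 0.0257), a call lost under 6 alternatives. Of receptor kinases and ligands, 4 of 24 acetylated promoters were members and 2 were lower. None was called without untreated replicate 2 or 3, and 1 was called without untreated replicate 1 or replicate 2 or 3 after UV. That whole list had 7 of 39 tested genes lower and 4 higher. Pdgfra, the receptor for platelet-derived growth factor on fibroblasts, had 466, 1254 and 1111 CPM untreated and 214, 404 and 413 CPM after UV. The groups did not overlap, with log2 fold change -1.46 ± 0.32 (edgeR adjusted p = 0.00308), and the adjusted p was 0.119 without untreated replicate 2 and 0.0773 without untreated replicate 3.

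Irs1, the insulin receptor substrate, was lower at -0.79 ± 0.25 and lost its call under 6 alternatives. Efna1, an ephrin ligand, fell by 1.38, and Cdc25b, a phosphatase that drives entry into mitosis, by 1.24 on the log2 scale (edgeR adjusted p = 0.000171 and 0.000441). Ptch1, the Hedgehog receptor, was lower at -0.77 ± 0.20 (edgeR adjusted p = 0.0104), with 0.0695 without untreated replicate 2, 0.0653 without untreated replicate 3 and 0.0655 without replicate 3 after UV. Hdac9, a histone deacetylase, was lower at -0.68 ± 0.23 (edgeR adjusted p = 0.0431) and lost its call under 8 alternatives. Ltbp3, which binds latent TGF-beta, was called higher at 0.84 ± 0.25 (edgeR adjusted p = 0.0244). Its adjusted p was 0.0743 without untreated replicate 2, 0.0573 without untreated replicate 3 and 0.0825 without replicate 1 after UV.

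Among members that rose in RNA, the largest named increases were those of Fat4 and of ribosomal protein genes. Fat4 encodes a giant protocadherin that sets planar cell polarity. Its promoter went from 522 to 163 H3K27ac reads. Its RNA was 102, 82.9 and 101 CPM untreated and 233, 174 and 195 CPM after UV. Every irradiated library exceeded every untreated library, with log2 fold change 1.08 ± 0.20 (edgeR adjusted p = 0.000837), between 0.94 and 1.25 with single libraries left out.

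Of the cytosolic ribosomal proteins, 4 of 76 acetylated promoters (5.26%) were members, and all 4, Rpl39, Rpl10a, Rpl36a and Rps16, were higher by 0.99 to 1.07 on the log2 scale. In the whole family 71 of 77 tested genes were higher and none lower, with a median of 0.99, so the members rose as the family did. Rpl39, a small protein of the large subunit, had 779, 1068 and 793 CPM untreated and 1626, 1844 and 2076 CPM after UV. The groups were separate, with log2 fold change 1.07 ± 0.21 (edgeR adjusted p = 0.00143). The members' calls held with library totals, where their median was 0.82. Ribosomal protein genes have many processed pseudogenes, so their counts are uncertain where the counting could split reads.

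Subunits of respiratory complex I gave 3 members of 36 acetylated promoters, all higher in RNA, against 28 of 35 in the family. Ndufa13 had 58.2, 83.3 and 68.5 CPM untreated and 133, 142 and 149 CPM after UV, with no overlap and a log2 fold change of 1.01 ± 0.19 (edgeR adjusted p = 0.00108). Ndufv3, at 0.58 ± 0.19, lost its call without replicate 2 or replicate 3 after UV. Mitochondrial ribosomal proteins had 3 members of 73 acetylated promoters, of which Mrpl23 and Mrpl42 were higher. In that family 23 of 76 tested genes were higher and 6 lower. Mrpl42 had an edgeR adjusted p of 0.217 without replicate 3 after UV. Rrbp1, a ribosome-binding protein of the endoplasmic reticulum, was 134, 123 and 122 CPM untreated and 295, 219 and 234 CPM after UV. Its groups did not overlap, with log2 fold change 0.98 ± 0.20 (edgeR adjusted p = 0.00177).

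**Figure D4:**
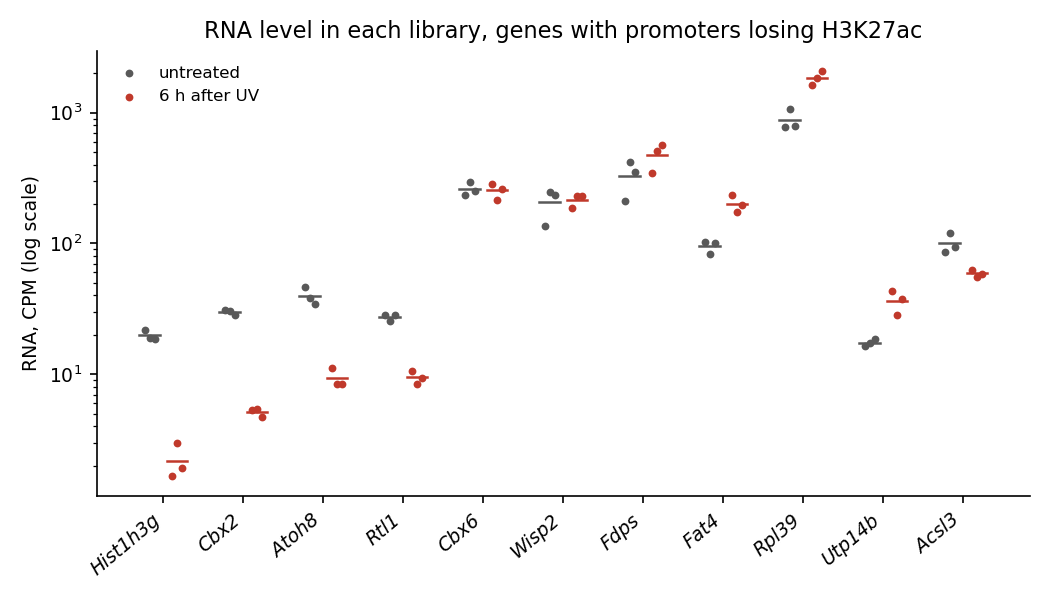
RNA in CPM on a log axis for 11 genes whose promoters lost H3K27ac, with 1 point per library (3 untreated in grey, 3 at 6 h after UV in red) and a line at each mean. The conditions are apart for Hist1h3g, Cbx2, Atoh8 and Rtl1 (lower) and for Fat4, Rpl39 and Utp14b (higher), and overlap for Cbx6, Wisp2 and Fdps.

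Extracellular matrix genes, which are high in fibroblasts, had 8 members of 35 acetylated promoters (22.9%) and none was called in RNA, with up to 2 called higher when a single library was left out. At an unadjusted p under 0.05 in edgeR, 2 were higher and 0 lower, and DESeq2 called 0. Their median log2 fold change was 0.41, and the values ran from 0.08 for Loxl1 to 0.62 for Bgn. The whole matrix list had a median of 0.35, with 6 of 45 tested genes higher and none lower. Bgn, the proteoglycan biglycan, went from 476 to 127 H3K27ac reads while its RNA value was 0.62 ± 0.25 (edgeR adjusted p = 0.0958). Timp2, an inhibitor of matrix proteases, had 0.55 ± 0.21 (edgeR adjusted p = 0.080), and Col16a1, a fibril-associated collagen chain, had 0.38 ± 0.22 (edgeR adjusted p = 0.286). With library totals the median of the 8 was 0.13, and 1 was called higher. Wisp2, a secreted matricellular protein, went from 520 to 85 H3K27ac reads with RNA at 136, 248 and 236 CPM untreated and 188, 231 and 231 CPM after UV. The irradiated values lay inside the untreated range (edgeR adjusted p = 0.95).

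Of the fixed lists, 6 held no member, beside the 7.69% share of members among all acetylated promoters. These were immediate early genes (31 acetylated promoters, median H3K27ac log2 ratio 0.89), p53 targets (26, median 1.24), genes of G1/S and DNA replication (36, median 0.18), the Hippo pathway (20, median 0.45), the circadian clock (14, median -0.01) and Notch signalling (7, median 0.07). The lists are small, so a count of 0 is a description only. Members numbered 2 of 36 for actin and focal adhesion genes, where Myl9 at 0.60 and Flna at 0.43 were not called in RNA. Without untreated replicate 1 both were called higher (edgeR adjusted p = 0.0068 and 0.0476), as was Myl9 without replicate 2 after UV (0.0224). In all, 647 of the 758 promoters were on none of the lists.

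FAIRE signal, which the rule did not use, was lower at most of these promoters, as it was at most other acetylated promoters. The FAIRE difference is the deposited log2 enrichment over input in the irradiated pool minus that in the untreated pool, and a loss is a difference of -1 or less. A loss was seen at 55 of 758 members (7.26%), against 2.19% of acetylated promoters and 1.05% of all promoters. A gain of at least 1 was seen at 0 members, against 0.0102% of acetylated promoters and 0.00457% of all promoters. The members' median difference was -0.54, with quartiles of -0.76 and -0.31, against -0.41 in other acetylated promoters and -0.17 in all. The difference was negative at 719 members (94.9%), at 91.9% of other acetylated promoters and at 68.0% of all promoters. Each condition is a single pooled value, so the groups of promoters are described without a test.

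The FAIRE pools differed in depth, and the read counts were small. The median member window held 58 untreated and 29 irradiated FAIRE reads, against 75 and 46 in other acetylated promoters. When reads were scaled to the pool totals with 16 reads added, 16 members (2.11%) showed a loss, against 0.325% of acetylated and 0.165% of all promoters, and the members' median was -0.22 against -0.05 in acetylated promoters. With the depth scaled, the 95% counting interval of the FAIRE read ratio lay below equality at 160 members and above it at 8. Intervals cover counting error only. The number of losses depended on the scaling, and members lost more often than acetylated promoters under each of the scalings computed.

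Losses by this measure were more frequent in windows with more untreated FAIRE reads. With at least 100 untreated FAIRE reads, 21.1% of 128 members showed a loss, against 3.79% of 2769 other acetylated promoters. With 50 to 99 reads the shares were 8.18% of 330 and 1.18% of 4249. With 25 to 49 reads they were 0.42% of 240 and 0.33% of 1812, and below 25 reads no promoter of either group showed a loss. Across members the FAIRE difference ran against the untreated enrichment (Pearson r = -0.63, Spearman rho = -0.65, 758 promoters), a relation in which both measures share the untreated pool.

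**Figure D5:**
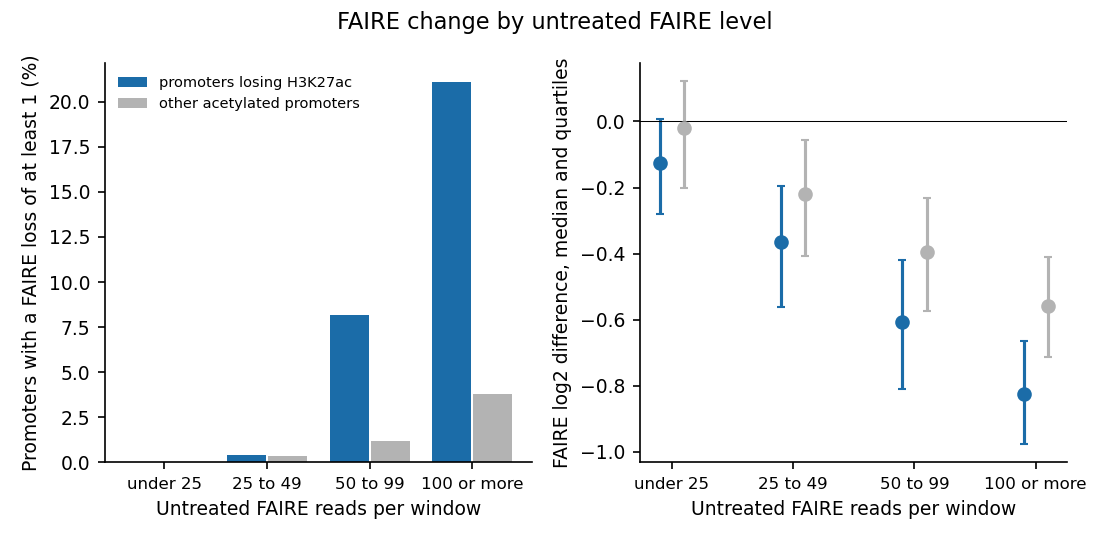
Left, percentage of promoters with a FAIRE loss of at least 1 on the log2 scale, by untreated FAIRE reads per window, for promoters losing H3K27ac (blue) and other acetylated promoters (grey). Right, median FAIRE log2 difference with its quartiles in the same classes; members reach 21.1% in the class of 100 or more reads and others 3.79%.

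The deepest FAIRE losses were at an imprinted locus and at Cbx6. Rtl1, a retrotransposon-derived gene of the imprinted Dlk1-Dio3 domain, and Mir3071, which is listed with nearly the same reads, went from 71 to 6 FAIRE reads, a difference of -1.82. Their H3K27ac reads went from 294 to 82 and from 296 to 83. Mir3071, Mir136 and Rian, of the same domain, are members in a row in the RefSeq order. Rtl1 RNA was 28.3, 25.7 and 28.6 CPM untreated and 10.6, 8.49 and 9.38 CPM after UV. The conditions were separate, with log2 fold change -1.53 ± 0.18 (edgeR adjusted p = 9.74e-06). The sources used here do not say that the counting used strand, so Rtl1 reads cannot be told apart from those of its antisense transcript.

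The Cbx6 window, shared with Npcd, went from 114 to 24 FAIRE reads (-1.57), and Mir802 from 81 to 15 (-1.51). For Cbx6 neither loss was matched by a called RNA change. Rpl36a showed a FAIRE difference of -1.41, from 64 to 12 reads, while its RNA rose from 528, 703 and 549 CPM to 1096, 1233 and 1318 CPM. All irradiated libraries exceeded the untreated ones, with log2 fold change 1.04 ± 0.21 (edgeR adjusted p = 0.0016).

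At the other end, the highest FAIRE differences in the upper 50% of promoters by mean enrichment were small. Cyba, a subunit of the phagocyte oxidase, had 24 and 28 FAIRE reads (0.30), Zfp362 had 14 and 18 (0.28), Atoh8 had 38 and 39 (0.21), Fat4 had 27 and 28 (0.19) and Prdx4, a peroxiredoxin, had 28 and 29 (0.17). All 5 genes were called in RNA, in both directions. Atoh8 and Zfp362, at -1.2 ± 0.18, were lower, and Fat4, Cyba at 0.81 ± 0.18 and Prdx4 at 0.68 ± 0.19 were higher. The adjusted p of Prdx4 was 0.0163 in edgeR and 0.171 without replicate 3 after UV. Atoh8 and Fat4 thus combined a large H3K27ac loss with a small difference in FAIRE enrichment and opposite RNA changes. The FAIRE pool totals fell from 1032412 to 637080 reads, and 16 reads are added to each window. With so few reads, these FAIRE differences depend on the scaling.

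The splits by FAIRE and by RNA did not line up. Of the 50 tested genes with a FAIRE loss, 12 (24%) were lower, 4 (8%) higher and 34 not called in RNA. Of the 627 tested genes without such a loss, 126 (20.1%) were lower, 61 (9.73%) higher and 440 not called. Across the 677 tested members the FAIRE difference and the RNA log2 fold change had a Pearson r of 0.02 and a Spearman rho of 0.01. The H3K27ac ratio and the FAIRE difference had an r of 0.11 and a rho of 0.08 in the 758 members, and 0.27 and 0.23 in the other acetylated promoters.

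Members were often next to each other in the genome. Of 751 members placed in the RefSeq gene order, 132 (17.6%) had an adjacent member, against 7.75% of 9020 other acetylated promoters with an adjacent member. Divergent or nested genes can share reads, as Cbx6 with Npcd and Acsl3 with Utp14b do, so adjacent members are not independent. The longest runs held 4 members: the histone run and Agbl5, Ost4, Emilin1 and Khk on chromosome 5.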

How the data were processed

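RNA counts are whole-number reads per gene and library that the authors deposited unscaled. The promoter tables hold, per the file headers, pooled read counts per condition and log2 enrichment values that the authors deposited. The enrichment values equal log2 of (reads + 16) over (scale × input reads + 16), with scales of 0.657 and 0.528 for untreated and irradiated FAIRE. The p-value columns of the authors' deposited RNA comparison served only to find which genes it lists and its largest adjusted p. The build mm9 and the tools TopHat, MACS2, DESeq2 and Bowtie 0.12.9 are named in the submitters' processing notes, without their roles or settings. In the tables, 8 columns of other conditions were not used.

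Library totals ran from 14211528 to 22032701 counts. Counts were tested in R 4.3.3 with edgeR 4.0.16 (filterByExpr, TMM, glmQLFit and the quasi-likelihood F test on 3 against 3 libraries), with Benjamini-Hochberg adjustment over 14925 genes and a threshold of 0.05. CPM used TMM-scaled totals, except for the cell type marker sums, which used unscaled library totals. On simulated data 59.2% of 103 genes changed by 1 and 93.8% of 97 genes changed by 2 on the log2 scale were recovered among 14301 genes. Promoter tables were analysed in Python 3.11.15 without a test, as each condition is 1 pool of 2 samples. Read-ratio intervals are exact binomial at 95% and cover counting error only.

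Members, gene lists and rules were chosen with earlier results of these data known. Genes were named by rule: the 8 lowest H3K27ac ratios; among calls with a mean of at least 5 CPM and no overlap, the 10 lowest and 8 highest; in the upper 50% by FAIRE enrichment, the 5 lowest and 5 highest; the 2 nearest promoters on each side of the limit; and up to 3 members per list by smallest p. Other genes named were chosen after their values were seen, and some genes that the rule names are not reported here. Alternatives were DESeq2 1.42.0, its size factors, library totals, no low-count filter, a replicate block, each library left out, other limits for membership, and other FAIRE scalings and thresholds.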

Additional observations from a re-analysis of the deposited data

How the results depend on the processing

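Main counts were 138 lower and 65 higher genes in RNA, a median of 0.02, 55 FAIRE losses, 0 gains and a median FAIRE difference of -0.54. With library totals the lower genes were 214 (31.6%, against 37.7% of acetylated and 25.1% of all tested genes) and the median -0.21 (all genes -0.24). Without the low-count filter the higher genes were 39 (5.72%, against 7.28% of acetylated and 4.19% of all tested genes). DESeq2 gave 118 lower (17.3%, against 13.8% of acetylated and 7.44% of all tested genes) and 48 higher (7.04%, against 8.62% and 4.89%). Leaving out 1 library gave 98 to 183 lower genes, 26 to 109 higher genes and medians from -0.076 to 0.15, while the median of all tested genes ran from -0.07 to 0.19. With a membership limit of -1.2 there were 54 lower (20.1% of 268, against 18.4% of acetylated) and 23 higher genes (8.58%, against 10.9%). That limit gave 33 FAIRE losses (10.9% of 303, against 2.19% of acetylated promoters). FAIRE losses were 344 (45.4%, against 28.6% of acetylated promoters) at a threshold of 0.58. They were 27 (3.56%, against 0.711%) after centring on the median of all promoters and 16 (2.11%, against 0.325%) with depth-scaled reads + 16. The FAIRE median was then -0.37 with centring, -0.22 with depth-scaled reads + 16, -0.29 with depth-scaled reads + 1, -0.59 in the upper 50% by enrichment and -0.58 for members with at least 200 untreated reads. Depth-scaled reads + 1 gave 3 gains (0.396%, against 7.44% of all promoters). The cause of these changes was not tested. The members' median, near 0 with all libraries and TMM scaling, thus changed sign with library totals and when single libraries were left out. Among the genes named by rule, no called gene changed direction. Of the 39 called, 10 lost the call under at least 1 alternative, while 9 others passed under at least 1. Acsl3, Fads1, Ndufv3 and Mrpl42, named outside the rule, also lost their calls when single libraries were left out. Below 25 FAIRE reads a window can hardly reach a loss of 1, since 16 reads are added.

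The labels give no pairing of the RNA libraries. Deviations of same-numbered libraries correlated at 0.15, -0.58 and 0.50, and those of differently numbered libraries at -0.71 to 0.68. Each deviation is taken from a mean of 3 libraries, which ties them together, so these values cannot decide whether libraries were paired. With the replicate block, 152 genes were lower (22.5%, against 20.6% of acetylated) and 85 higher (12.6%, against 11.9%). The median was then 0.01, and Mvd was called lower. Not every library correlated best with its own number.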
